A study of Sus scrofa with 6 samples.

Results

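The proteasome genes of pig back muscle were compared between 2 breeds. A gene counted as a member if a probe set of the Affymetrix Porcine Genome Array carried a single platform gene symbol starting with PSMA, PSMB, PSMC, PSMD, PSME, PSMF or PSMG. That rule gave 46 probe sets and 40 genes, out of 23999 probe sets and 6765 named genes in all, and a gene with several probe sets was read from its brightest. Of 5 members induced by interferon, 4 were measured, namely PSMB8, PSMB10, PSME1 and PSME2. PSMB9 had no named probe set here and was not analysed. These 4 were set against the other 36 genes. The samples were longissimus dorsi (a back muscle) from 3 Large White boars, the control breed, and from 3 Northeastern Indigenous boars. Per the labels, all 6 boars had the same feed and surroundings and were slaughtered at 150 days, and each gave 1 array.

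The proteasome is the barrel-shaped protease that degrades proteins tagged with ubiquitin. Its core, the 20S particle, is a stack of rings of alpha subunits, which gate the entrance, and of beta subunits, of which PSMB5, PSMB6 and PSMB7 carry the cutting sites. The 19S cap, made of the PSMC ATPases and the PSMD non-ATPases, binds, unfolds and feeds in the tagged protein. Interferon induces PSMB8, PSMB9 and PSMB10, which take the places of PSMB5, PSMB6 and PSMB7 in newly built cores and give the immunoproteasome, and it also induces PSME1 and PSME2, the alternative cap PA28 alpha-beta. Immunoproteasomes favour peptides that fit class I histocompatibility molecules. In skeletal muscle the constitutive proteasome removes much of the contractile protein during atrophy.

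Values are log2 intensities after quantile normalization, and a difference of 1 is a factor of 2. Differences are Northeastern Indigenous minus Large White from limma, with its SE, and a call needed a Benjamini-Hochberg adjusted p under 0.05 over 14399 probe sets. Intensities of different probe sets depend on the probes, so levels were compared between arrays and never between genes. Muscle markers were bright on 5 of the 6 arrays but had a median of -3.18 on Large White replicate 1, relative to the mean of the Northeastern Indigenous arrays. Adipocyte markers were 4.08, 0.12 and 3.28 above the same mean on Large White replicates 1, 2 and 3. Large White replicates 1 and 3 therefore stood apart, and differences are also given against Large White replicate 2. On Large White replicate 3 the muscle markers were at -0.17 after quantile normalization, at -0.76 as deposited and at -0.89 with arrays centred on their medians. In a piece of whole muscle, fewer cells of a type and less RNA per cell cannot be told apart.

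The 4 measured interferon-induced genes were all dimmer in Northeastern Indigenous boars, while 33 of the other 36 proteasome genes were brighter. Among named genes 45.3% had a negative and 54.7% a positive difference. The median difference was -0.73 log2 units for the 4 and 0.42 for the 36, beside 0.09 over 5438 named genes. All 40 genes passed the filter on dim probe sets. Limma called 0 of 40, and it called 0% of all probe sets and 0% of named genes too. The smallest adjusted p among the members was 0.224. At an unadjusted p under 0.05, 10 of 36 other members were higher in Northeastern Indigenous boars (27.8%) against 9.42% of named genes, and 3 of 4 interferon-induced members were lower (75.0%) against 11.4%. Over the 40 the count was 14 (35.0%, against 20.8% of named genes), and it moved with the arrays used. Without Large White replicates 1, 2 and 3 in turn it was 10, 22 and 7 of 40, against 14.1%, 48.6% and 9.64% of named genes. Without Northeastern Indigenous replicates 1, 2 and 3 in turn it was 6, 8 and 4 of 40, against 10.5%, 14.0% and 10.0%. The 3 interferon-induced genes at that threshold became 1 without Large White replicate 1, 2 without any other single Large White array or without Northeastern Indigenous replicate 2, and 0 without Northeastern Indigenous replicate 1 or 3. The breeds did not overlap in 17 of the 36 (47.2%) with Northeastern Indigenous arrays higher, against 15.9% of named genes, and in 4 of 4 interferon-induced genes with these arrays lower, against 12.3%.

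**Figure D1:**
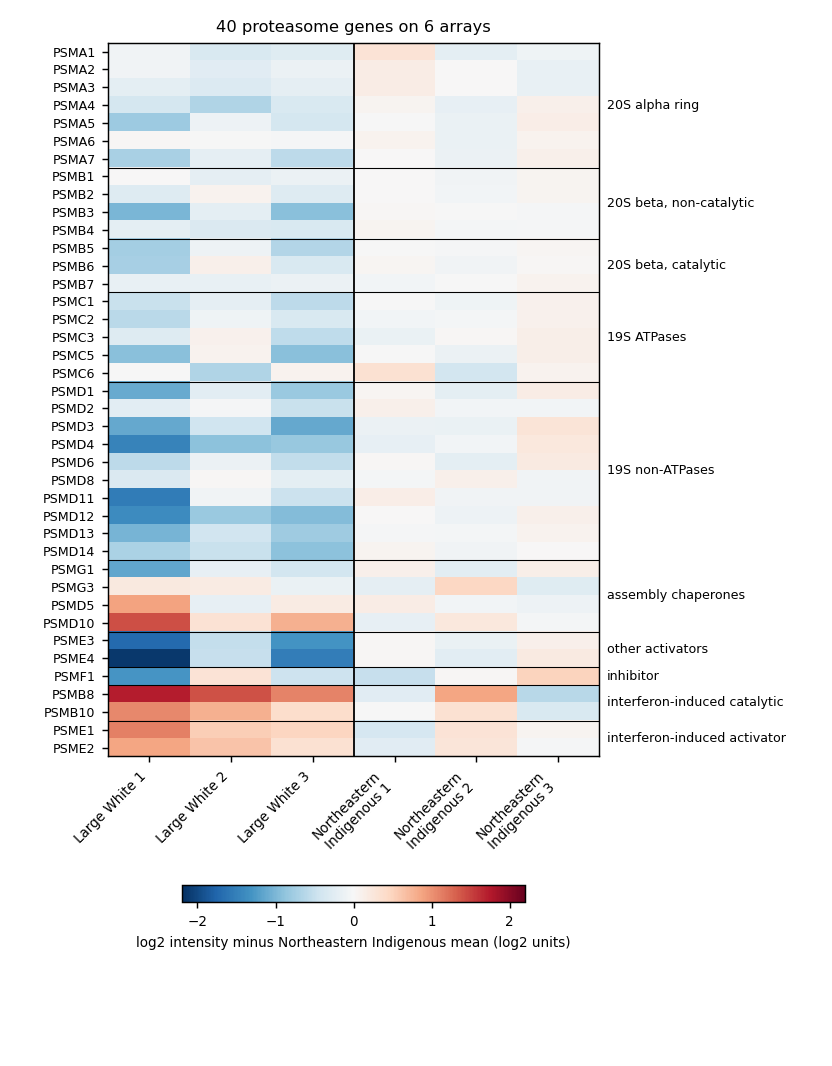
Colours show the log2 intensity of each of the 40 genes on each array minus the mean of the 3 Northeastern Indigenous arrays, with genes in rows grouped by role and arrays in columns. The interferon-induced genes at the bottom are above that mean on all Large White arrays, most of the other rows are below it, and Large White replicate 1 departs most, down to PSME4.

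PSMB8, the induced counterpart of the chymotrypsin-like subunit, had the largest negative difference of the family. Its log2 intensities were 10.62, 10.29 and 9.99 on Large White replicates 1, 2 and 3, against 8.64, 9.76 and 8.28 on the Northeastern Indigenous arrays. In deposited intensities these were 1637, 1199 and 1103 against 366, 823 and 290. All Large White arrays were above all Northeastern Indigenous ones, but the margin between replicate 3 of the first and replicate 2 of the second was only 0.23. The difference was -1.41 ± 0.43 (SE; 10.30 ± 0.32 against 8.89 ± 0.78, SD, n = 3 per breed), 2.65-fold brighter in Large White, with an adjusted p of 0.224 in limma. Leaving out 1 array gave differences from -1.84 to -1.10.

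PSMB10, the induced counterpart of the trypsin-like subunit PSMB7, followed the same order of breeds with a smaller difference. It read 9.85, 9.57 and 9.18 in Large White and 8.78, 9.13 and 8.45 in Northeastern Indigenous boars. The difference was -0.75 ± 0.31 (SE, n = 3 per breed; adjusted p = 0.26 in limma), and the breeds were 0.06 apart at their nearest arrays.

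PSME1 and PSME2, the alpha and beta chains of the interferon-induced PA28 ring that opens the core without ubiquitin, had similar differences. PSME1 read 11.57, 11.00 and 10.92 in Large White against 10.09, 10.75 and 10.52 in Northeastern Indigenous boars, a difference of -0.71 ± 0.30 (SE; adjusted p = 0.266 in limma). PSME2 read 11.46, 11.23 and 10.93 against 10.35, 10.87 and 10.58, a difference of -0.60 ± 0.27 (SE; adjusted p = 0.272 in limma). For all 4 genes Large White replicate 1 was the brightest of the 6 arrays and replicate 2 the brightest of the Northeastern Indigenous ones. Among named genes, Large White replicate 1 was the brightest array for 32.8%, and replicate 2 the brightest Northeastern Indigenous array for 35.6%.

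**Figure D2:**
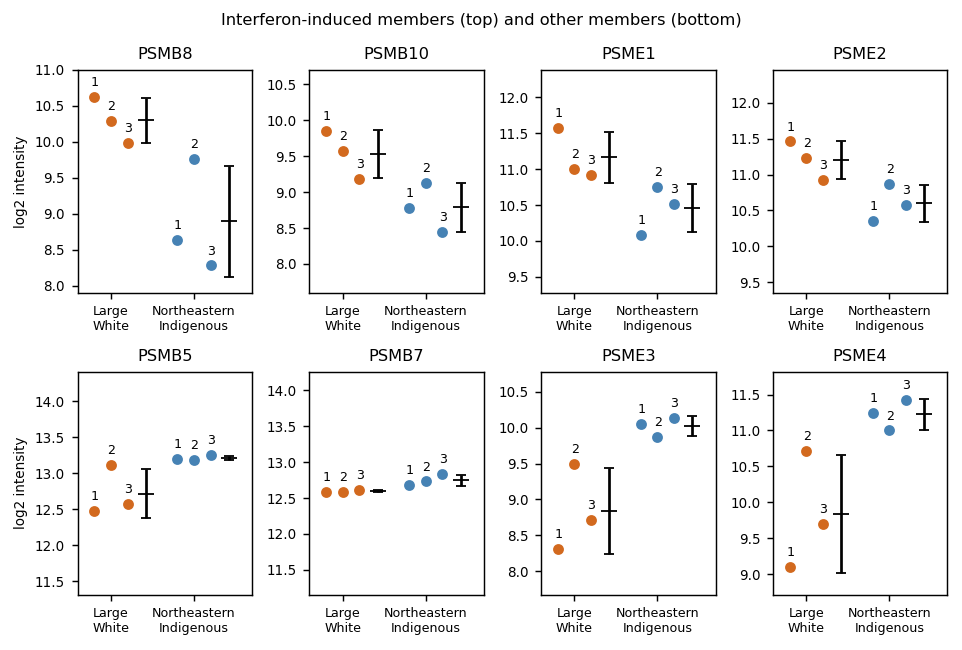
Points are log2 intensities of single arrays, numbered by replicate, with the mean and SD of each breed (n = 3) as a bar beside them, and all panels span the same number of log2 units. The top row (PSMB8, PSMB10, PSME1, PSME2) is lower in Northeastern Indigenous boars with no overlap, and the bottom row (PSMB5, PSMB7, PSME3, PSME4) is higher with no overlap.

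Catalytic subunits were compared as the log2 intensity of the induced gene minus that of its constitutive counterpart on the same array. A factor common to all genes of an array then cancels, while quantile normalization, which shifts bright and dim genes unequally, does not. This is a ratio of transcripts in whole muscle, and the exchange of subunits in the particle was not measured. The absolute size of the ratio depends on the probes and only its difference between arrays has a meaning. PSMB8 minus PSMB5 was -1.85, -2.82 and -2.58 in Large White and -4.56, -3.42 and -4.98 in Northeastern Indigenous boars. The breeds differed by -1.90, a 3.74-fold higher ratio in Large White (-2.42 ± 0.50 against -4.32 ± 0.80, SD, n = 3 per breed). PSMB10 minus PSMB7 was -2.74, -3.01 and -3.43 in Large White and -3.90, -3.61 and -4.38 in Northeastern Indigenous boars, a difference of -0.91 or 1.87-fold. As deposited, the differences were -2.24 and -1.25. Neither pair overlapped between breeds. The exact permutation test, two-sided, gave p = 0.1 for each of the 2 pairs and 0.1 after adjustment over them, which is the smallest p that 3 arrays against 3 allow. Against Large White replicate 2 by itself the Northeastern Indigenous means were -1.50 and -0.96 from it.

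Some of the dimmer genes are neighbours in the genome. In the RefSeq annotation of assembly Sscrofa11.1, PSMB8 lies between TAP2 and TAP1, with PSMB9 next after TAP1, inside the histocompatibility complex. TAP1, which with TAP2 forms the pump that carries proteasome peptides to class I molecules, read 10.37, 9.64 and 9.46 in Large White and 8.08, 8.21 and 8.40 in Northeastern Indigenous boars. PSME2 lies next to IRF9, a subunit of the interferon-activated factor ISGF3, and only EMC9 separates PSME2 from PSME1. IRF9 read 8.84, 8.54 and 8.19 against 7.51, 8.00 and 8.04. Neither TAP1 nor IRF9 overlapped between breeds, against 12.3% of named genes lower in Northeastern Indigenous boars without overlap. The difference of IRF9 was -0.67 ± 0.29 (SE; adjusted p = 0.269 in limma). PSMB10 has none of these neighbours and lies between CTRL and LCAT. Values of EMC9, CTRL and LCAT were not compared.

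All 7 genes of the alpha ring, which forms the gated entrance of the core, had positive differences, but their size depended on the scaling. They ran from 0.01 for PSMA6 to 0.50 for PSMA7, with a median of 0.23, after quantile normalization. The median was 0.48 as deposited, with a range of 0.32 to 0.66, and 0.62 with arrays centred on their medians, with a range of 0.46 to 0.80. PSMA7 read 12.23, 12.75 and 12.36 in Large White and 12.96, 12.81 and 13.06 in Northeastern Indigenous boars, a difference of 0.50 ± 0.21 (SE; adjusted p = 0.264 in limma). PSMA4 differed by 0.46 ± 0.20, PSMA5 by 0.43 ± 0.25, PSMA3 by 0.23 ± 0.15, PSMA1 by 0.22 ± 0.21 and PSMA2 by 0.15 ± 0.15. PSMA6 was at 13.60 ± 0.03 and 13.61 ± 0.13 (SD, n = 3 per breed) after quantile normalization, and its difference was 0.32 as deposited. PSMA3, PSMA4 and PSMA7 did not overlap between breeds, with margins of 0.03, 0.15 and 0.06.

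Among the non-catalytic beta subunits, PSMB3 had the largest difference. It read 10.45, 11.23 and 10.53 in Large White and 11.48, 11.45 and 11.43 in Northeastern Indigenous boars, a difference of 0.72 ± 0.28 (SE; adjusted p = 0.251 in limma). The Northeastern Indigenous arrays were nearly level (SD 0.02, n = 3) and Large White replicate 2 lay close below them. PSMB4 differed by 0.29 ± 0.14, PSMB2 by 0.17 ± 0.20 and PSMB1 by 0.11 ± 0.16.

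PSMB5 and PSMB7 had positive differences, unlike their induced counterparts PSMB8 and PSMB10, and PSMB6 could not be set beside PSMB9. PSMB5, the chymotrypsin-like subunit, read 12.47, 13.11 and 12.57 in Large White and 13.20, 13.19 and 13.25 in Northeastern Indigenous boars, a difference of 0.49 ± 0.21 (SE). PSMB6, the caspase-like subunit, read 12.33, 13.17 and 12.72 against 13.10, 12.98 and 13.09, a difference of 0.32 ± 0.24 that was 0.11 without Large White replicate 1, and the breeds overlapped. PSMB7, the trypsin-like subunit, read 12.59, 12.58 and 12.61 against 12.68, 12.73 and 12.83, a difference of 0.16 ± 0.17. Large White replicate 2 matched the Northeastern Indigenous arrays for PSMB5 and PSMB6, with the Northeastern Indigenous means at 0.10 and -0.11 from it. Adjusted p-values of the 3 genes ran from 0.27 to 0.581 in limma.

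**Figure D3:**
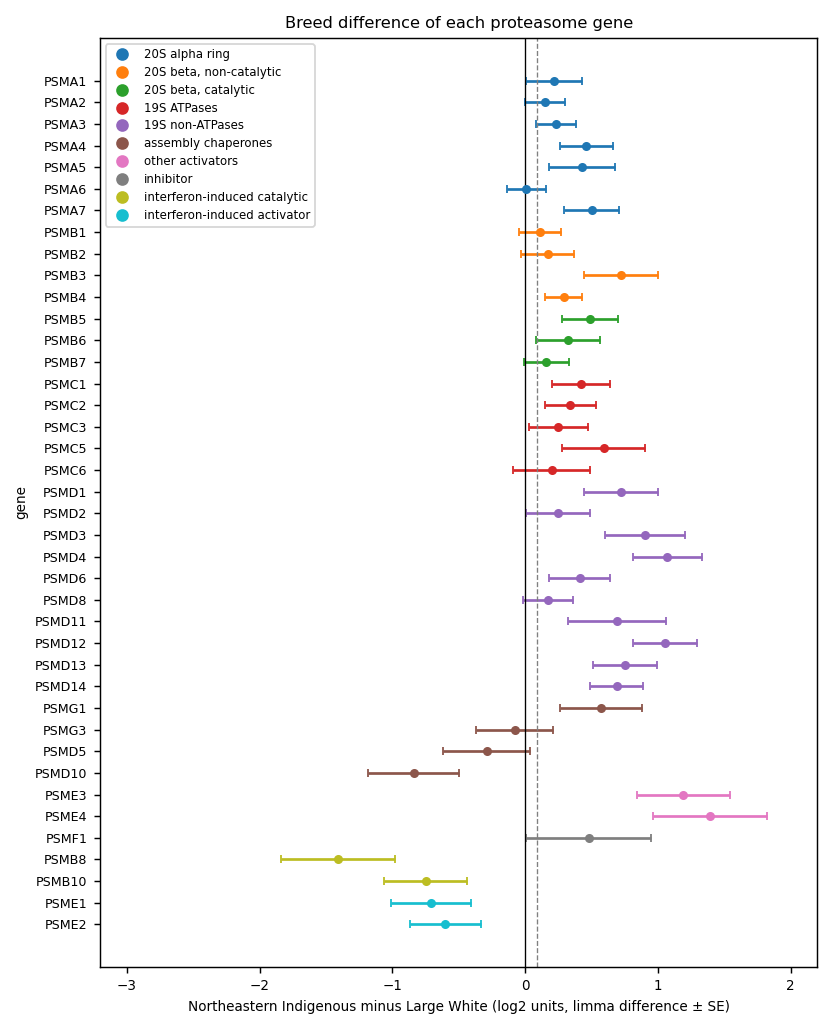
Points are the limma differences of the 40 genes, Northeastern Indigenous minus Large White in log2 units, with bars for the SE, coloured by role. The solid line is 0 and the dashed line the median of 5438 named genes, 0.09. The 19S non-ATPases and the activators PSME3 and PSME4 reach furthest right, and the 4 interferon-induced genes and PSMD10 furthest left.

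The 19S ATPases, the ring that unfolds substrates, had 5 measured genes, all with positive differences from 0.20 for PSMC6 to 0.59 for PSMC5. PSMC1 read 11.43, 11.73 and 11.34 in Large White and 11.91, 11.83 and 12.02 in Northeastern Indigenous boars, a difference of 0.42 ± 0.22 (SE; adjusted p = 0.313 in limma). PSMC5 read 11.82, 12.81 and 11.82 against 12.73, 12.61 and 12.87. Large White replicate 2 thus sat inside the Northeastern Indigenous range for PSMC5, and the other Large White arrays lay below it. PSMC2 and PSMC3 differed by 0.34 ± 0.19 and 0.25 ± 0.22.

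The 19S non-ATPases had the largest positive differences of the 26S particle, with a median of 0.71 over 10 genes, and 6 of the 10 were higher at an unadjusted p under 0.05, against 9.42% of named genes. PSMD4, a receptor for ubiquitin chains, read 10.96, 11.53 and 11.59 in Large White and 12.25, 12.37 and 12.67 in Northeastern Indigenous boars. The difference was 1.07 ± 0.26 (SE), 2.10-fold, with an adjusted p of 0.224 in limma, and the breeds were 0.67 apart at their nearest arrays. PSMD12, a scaffold subunit of the lid, read 10.50, 11.06 and 10.92 against 11.88, 11.76 and 12.00, a difference of 1.05 ± 0.24 with the breeds 0.70 apart. These 2 genes had the widest margins of the family, and their Northeastern Indigenous means lay 0.90 and 0.82 above Large White replicate 2.

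PSMD14, the lid enzyme that cuts ubiquitin chains off the substrate, read 12.06, 12.27 and 11.85 in Large White and 12.81, 12.68 and 12.77 in Northeastern Indigenous boars, a difference of 0.69 ± 0.20 (SE). PSMD3, another lid subunit, read 9.49, 10.19 and 9.49 against 10.49, 10.47 and 10.91, a difference of 0.90 ± 0.30. PSMD13, also of the lid, read 10.63, 11.23 and 10.88 against 11.63, 11.61 and 11.73, a difference of 0.75 ± 0.24. For these lid genes, too, the breeds did not overlap, and Large White replicate 2 was the nearest to the Northeastern Indigenous arrays. PSMD1, a large subunit of the base, read 11.10, 11.97 and 11.39 against 12.25, 12.00 and 12.37, a difference of 0.72 ± 0.28, with a margin of 0.03. PSMD11 read 12.06, 13.53 and 13.12 against 13.74, 13.53 and 13.53, so its difference of 0.69 ± 0.37 came mostly from replicate 1 and was 0.27 without it. PSMD6, PSMD2 and PSMD8 differed by 0.41 ± 0.23, 0.25 ± 0.24 and 0.17 ± 0.19.

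The activators that interferon does not induce went the other way from PSME1 and PSME2. PSME3, the nuclear PA28 gamma, read 8.31, 9.49 and 8.71 in Large White and 10.05, 9.87 and 10.14 in Northeastern Indigenous boars, a difference of 1.19 ± 0.35 (SE; 2.27-fold; adjusted p = 0.224 in limma). PSME4, the large single-chain activator PA200, read 9.10, 10.72 and 9.70 against 11.25, 11.00 and 11.43, a difference of 1.39 ± 0.43 (2.61-fold; adjusted p = 0.225 in limma), the largest positive value of the 40 genes. In both genes the 3 Northeastern Indigenous arrays were above every Large White array, and Large White replicate 1 was lowest. Against Large White replicate 2 by itself the differences were 0.53 and 0.50. PSMF1, the inhibitor PI31, read 7.77, 9.37 and 8.62 against 8.56, 9.10 and 9.56, so the breeds overlapped (0.48 ± 0.47), and its difference was 0.08 without Large White replicate 1.

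The 4 assembly chaperones differed among themselves, with 1 positive and 3 negative differences. PSMD10, or gankyrin, which escorts the base ATPase PSMC4 during assembly, read 10.84, 9.73 and 10.20 in Large White and 9.23, 9.65 and 9.37 in Northeastern Indigenous boars. Its difference was -0.84 ± 0.34 (SE; adjusted p = 0.26 in limma), and it was the single member outside the interferon-induced set that was lower without overlap, by a margin of 0.07. Without Large White replicate 1 its difference was -0.55. PSMD5, another base chaperone, read 11.25, 10.18 and 10.54 against 10.53, 10.31 and 10.26 (-0.29 ± 0.33), and its difference was 0.01 without Large White replicate 1. PSMG1, a chaperone of the alpha ring, read 10.56, 11.52 and 11.30 against 11.80, 11.46 and 11.83 (0.57 ± 0.31), and its difference was 0.29 without Large White replicate 1. PSMG3, of a second alpha-ring chaperone pair, read 9.05, 9.02 and 8.69 against 8.64, 9.30 and 8.58 (-0.08 ± 0.29).

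Large White replicate 2, whose muscle and adipocyte markers lay at 0.00 and 0.12 from the Northeastern Indigenous mean, kept the direction of the interferon-induced set. Its leukocyte markers lay at 0.74 from the same mean and its fibroblast and matrix markers at 0.48, so it was not matched for these. Relative to the Northeastern Indigenous mean, the 4 genes had a median of 0.71 on that array, beside 1.09 and 0.43 on replicates 1 and 3. Every Northeastern Indigenous array was below it in 4 of 4 genes, against 29.3% of named genes. The 36 other genes lay at -0.19 on it, against -0.59 and -0.42 on replicates 1 and 3. The Northeastern Indigenous mean was above it in 28 of the 36 (77.8%), against 49.5% of named genes, and every Northeastern Indigenous array was above it in 22 (61.1%), against 30.9%. With replicates 1 and 3 of Large White left out, limma called 0 members and 0% of named genes, and 7 of 40 members (17.5%) had an unadjusted p under 0.05 against 10.8% of named genes. Without Large White replicate 2 it called 14 of 40 (35.0%), near the 34.0% of named genes. Of these, 13 were higher and 1, PSMD10, was lower, against 16.9% and 17.1% of named genes, and none of the 4 interferon-induced genes was among them (PSMB8 adjusted p = 0.0597 in limma).

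Leukocyte markers, like the interferon-induced genes, had higher medians on the Large White arrays. The order of the Large White arrays differed between the lists, while replicate 2 was the highest Northeastern Indigenous array in both. The 19 measured of 24 listed had medians of 2.31, 0.74 and 2.23 on Large White replicates 1, 2 and 3, relative to the same mean, and -0.30, 0.70 and -0.39 on the Northeastern Indigenous arrays. The interferon-induced genes had medians of 1.09, 0.71 and 0.43 on the same Large White arrays, lowest on replicate 3. On the Northeastern Indigenous arrays their medians were -0.25, 0.32 and -0.18. Northeastern Indigenous replicate 2 was the brightest array of its breed for 94.7% of the leukocyte markers, against 35.6% of named genes. The summed intensity of the leukocyte markers ran from 9964 to 33196 in Large White and from 3311 to 6824 in Northeastern Indigenous boars, and no marker was at 0. The sum of 10 measured of 12 listed fibroblast and matrix markers also ran higher in Large White, at 134343, 45228 and 115014, than in Northeastern Indigenous boars, at 35897, 40792 and 27896. The part of leukocytes and fibroblasts in the difference between breeds was not tested.

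On Large White replicate 1 the median of the muscle markers lay below the Northeastern Indigenous mean, as did that of the other 36 genes. That of the adipocyte markers lay above it. Summed over 14 measured of 18 listed, the muscle markers had 90704 there, 388741 and 336458 on Large White replicates 2 and 3, and 380128 to 414110 in Northeastern Indigenous boars. The sum of 12 measured of 15 listed adipocyte markers was 72114, 20118 and 50707 on Large White replicates 1, 2 and 3 and 20231 to 23646 in Northeastern Indigenous boars, with no marker at 0. The 19S genes lay at -0.69, -0.19 and -0.58 on Large White replicates 1, 2 and 3, and the constitutive core genes at -0.25, -0.19 and -0.31. As deposited, these values were -0.94, -0.21 and -0.80 for the 19S and -0.71, -0.18 and -0.57 for the core, so the gap between core and 19S depended on the scaling. The part of the tissue markers in these values was not tested. Large White replicate 1 was the lowest of the 6 arrays for 18 of the 36 genes (50.0%), against 31.8% of named genes.

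**Figure D4:**
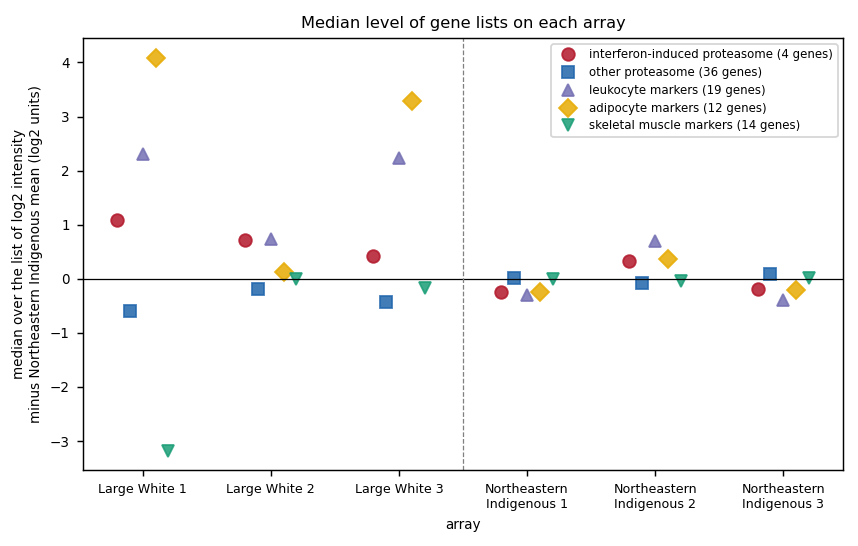
Each symbol is the median over a gene list of log2 intensity minus the Northeastern Indigenous mean, by array. The interferon-induced proteasome genes are above 0 on all 3 Large White arrays (1.09, 0.71 and 0.43) and the other proteasome genes below it (-0.59, -0.19 and -0.42). Adipocyte markers depart on Large White replicates 1 and 3 and muscle markers on replicate 1 (after quantile normalization), and both are near 0 on replicate 2. Leukocyte markers are above 0 on all 3 Large White arrays (2.31, 0.74 and 2.23) and on Northeastern Indigenous replicate 2 (0.70).

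Spread within a breed was small for most members. The median SD over the 36 other genes was 0.30 for the Large White arrays and 0.13 for the Northeastern Indigenous ones (n = 3 each), against 0.47 and 0.24 over named genes. The named genes were not matched to these members for intensity. The interferon-induced genes were as variable in Northeastern Indigenous boars as in Large White, with a median SD of 0.33 in each. PSMB8 had the largest Northeastern Indigenous SD of the family, 0.78.

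Where a gene had several probe sets, these gave the same direction. PSMD11 had 3, with differences of 0.69, 1.21 and 1.11. PSMC2 had 3, at 0.34, 0.32 and 0.39. PSMD1 had 2, at 0.72 and 0.93, and the dimmer one read 9.90, 10.17 and 9.92 in Large White against 10.59, 10.99 and 11.20 in Northeastern Indigenous boars. PSMF1 had 2, at 0.48 each.

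Genes that work with the proteasome were counted from lists, and limma called 0 members of each. At an unadjusted p under 0.05, 0 of 7 genes for ubiquitin, its conjugation and the p97 unfoldase passed. VCP, which encodes p97, was at 0.48 ± 0.23 (SE), its cofactor UFD1 at 0.29 ± 0.26, the ubiquitin-conjugating enzyme UBE2K at 0.44 ± 0.24 and RPS27A, a ubiquitin fusion gene, at -0.18 ± 0.12. Of 7 proteasome-bound partners 1 was higher (14.3%, against 9.42% of named genes), ZFAND2A, a stress-induced 19S partner, at 0.81 ± 0.28, and SEM1, a small lid subunit outside the naming rule, was at 0.46 ± 0.29. UBE3A, a ubiquitin ligase that binds the proteasome, was at 0.59 ± 0.32, and ZFAND5, a proteasome-binding zinc finger protein, at 0.68 ± 0.44. The list of proteasome regulators and muscle ligases held 13 genes, of which 4 were tested. Of these 4, 3 were higher (75.0%, against 9.42% of named genes). FBXO32, the atrophy ligase atrogin-1, differed by 2.64 ± 0.77, STUB1, a ligase for chaperone-bound proteins, by 1.22 ± 0.45 and MUL1, a mitochondrial ligase, by 0.75 ± 0.26. Against Large White replicate 2 by itself these were 1.37, 0.26 and 0.37, and Large White replicate 1, the array with low muscle markers, was the dimmest of the 6 for each. FOXO1, a factor that activates atrophy genes, was at -0.07. FOXO3, a related factor, was below the filter and was not tested.

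Part of the pathway that receives immunoproteasome peptides was dimmer in Northeastern Indigenous boars. Of 22 listed class I pathway genes 16 were measured. Of these, 7 were lower (43.8%, against 11.4% of named genes) and 0 higher at an unadjusted p under 0.05. The 7 included the related class I heavy chains SLA-2, SLA-3, SLA-6 and SLA-8, and 9 genes passed in neither direction. The median of the 16 was -0.68. TAP1 differed by -1.60 ± 0.32 (SE), the class I heavy chain SLA-3 by -1.71 ± 0.50, SLA-2 by -1.11 ± 0.36 and SLA-8 by -1.11 ± 0.35. Against Large White replicate 2 by itself TAP1 was at -1.41, SLA-3 at -0.52, SLA-2 at -0.35 and SLA-8 at -0.52. The cytosolic peptidases TPP2 (1.12 ± 0.48) and NRDC (0.69 ± 0.33), which trim or cut proteasome products, had positive differences without overlap. Their Northeastern Indigenous means lay 0.27 and 0.26 above Large White replicate 2. In the class I list 2 genes were higher without overlap (12.5%, against 15.9% of named genes) and 6 lower (37.5%, against 12.3%). Of 21 tested genes of interferon signalling and response 10 were lower (47.6%, against 11.4% of named genes) and 0 higher. STAT2, a transducer of type I interferon, differed by -1.59 ± 0.31, the antiviral enzyme OAS1 by -2.46 ± 0.36, the interferon-induced GTPases GBP1 and GBP2 by -3.60 ± 0.46 and -1.66 ± 0.34, and IRF1, a factor that activates immunoproteasome genes, by -1.41 ± 0.42. Against Large White replicate 2 by itself STAT2 was at -1.25, OAS1 at -2.76, GBP1 at -2.77, GBP2 at -1.61 and IRF1 at -0.83.

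Autophagy, the other main route of protein breakdown in muscle, showed no common direction. Of 15 genes 2 were higher and 2 lower at an unadjusted p under 0.05, with a median of -0.14. MAP1LC3A, which coats the autophagosome, differed by 1.72 ± 0.55 (SE) and SQSTM1, the receptor for ubiquitin-tagged cargo, by 0.58 ± 0.21, while the lysosomal genes LAMP2 and CTSB were at -0.97 ± 0.30 and -1.28 ± 0.46. The shares at that threshold, 13.3% in each direction, lie near the 9.42% and 11.4% of named genes. Against Large White replicate 2 by itself MAP1LC3A was at 0.49, SQSTM1 at 0.41, LAMP2 at -0.42 and CTSB at -0.20.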

How the data were processed

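Total RNA of 6 muscle samples was hybridized as biotin-labelled cRNA, 1 array per boar, per the labels. The authors deposited linear intensities per probe set, the software and settings behind which the sources used here do not give. Trimmed means (2% off each end) lay between 499.8 and 499.9 on every array. The 124 control probe sets were left out. Intensities were taken as log2 and quantile normalized, since array medians spanned 0.35. A filter at the 40th percentile of each probe set's mean kept the brighter ones (14399 probe sets, 5438 named genes), which were fitted in R 4.3.3 using limma 3.58.1 (eBayes with trend, 4 residual degrees of freedom, two-sided). Symbols came from the platform annotation, and all 46 member probe sets matched RefSeq gene identifiers. The number of arrays limits the precision.

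The members, the gene lists and the tests were chosen with earlier results of these data known. Values on every array are given for the interferon-induced genes, PSMB5, PSMB6, PSMB7, PSME3, PSME4, PSMF1, the members of largest difference in each direction and the leading gene of each role. The other members are given by their differences, except PSMC5, PSMD11, PSMD14 and PSMG1, which are given on every array beyond this choice. In the pathway lists the 4 genes of smallest unadjusted p are named, with TAP1 and FBXO32. Beyond that rule, IRF1, IRF9, SLA-6, TPP2, NRDC and FOXO3, which was below the filter, were named after their values were seen.

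Alternatives were other scalings, filters, an offset of 32, other variance priors, a block for the replicate number, averaging a gene's probe sets, an adjusted p under 0.1, leaving out each array, and leaving out Large White replicates 1 and 3.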

Additional observations from a re-analysis of the deposited data

How the results depend on the processing

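Of the probe sets tested, limma called 0 in the reported analysis and 1 with arrays centred on their medians, when a gene's probe sets were averaged, or at an adjusted p under 0.1. Leaving out 1 array gave 0 to 4421 called probe sets, 0 to 14 called members and 4 to 22 members at an unadjusted p under 0.05, with every highest count without Large White replicate 2. The count of 14 members was 7 (17.5%, against 10.8% of named genes) with Large White replicates 1 and 3 left out together. The median of the 36 other genes was 0.68 with arrays centred on their medians, where all named genes had a median of 0.16, and 0.19 without Large White replicates 1 and 3. Without quantile normalization it was 0.54, with all named genes at 0.02. The median of the 4 interferon-induced genes stayed between -0.89 and -0.55 under every alternative run, and their 4 differences stayed negative. Of the 36 others, 28 to 34 were positive.

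Deviations of same-numbered boars of the breeds had correlations of -0.02, -0.16 and -0.11, and those of differently numbered boars ran from -0.09 to 0.13. With 3 arrays per breed, these values cannot decide whether the numbers pair the animals. With the replicate block, 0 members and 0 probe sets were called, and 6 members had an unadjusted p under 0.05 (15.0%, against 16.1% of named genes).

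Differences of some genes changed sign with the arrays used. Without Large White replicates 1 and 3 these were PSMB2 (-0.07), PSMB6 (-0.11), PSMC3 (-0.09), PSMC5 (-0.08), PSMD5 (0.19), PSMD8 (-0.03) and PSMF1 (-0.30). Without Large White replicate 1 PSMD5 was at 0.01, without replicate 2 PSMC6 was at -0.04 and without replicate 3 PSMA6 was at -0.01. Without Northeastern Indigenous replicate 1 PSMA6 was at -0.03 and PSMG3 at 0.02, and without replicate 3 they were at -0.03 and 0.05. Over the arrays left out in turn, PSMA6 ran from -0.03 to 0.08, PSMC6 from -0.04 to 0.40, PSMD5 from -0.53 to 0.01 and PSMG3 from -0.31 to 0.05. No detection calls were used here, so signal over background could not be judged.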
